A study of Mus musculus with 3 samples.

Results

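The genes described here are the chemokine receptor genes Ccr1, Ccr2, Ccr3, Ccr7, Ccrl2, Cx3cr1 and Cxcr4 and the formyl peptide receptor genes Fpr1 and Fpr2. They were chosen by symbol and make up 9 of the 55536 mouse genes quantified. The RNA came from primary macrophages grown out of the bone marrow of C57BL/6J mice and exposed to a bacterial stimulus at 100 ng/mL for 180 min. Polyadenylated RNA was sequenced in 3 libraries, numbered biological replicates 1, 2 and 3 of 1 group. The labels call the stimulus lipid A in one field and lipoprotein A in others, and it is called lipid A here. The labels give the 3 replicates 1 shared donor identifier, so the spread between them may be partly technical. The labels give neither age nor sex of the animals. No untreated cells were analysed here, so no value below is a response to lipid A.

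Chemokine receptors sit in the membrane of leukocytes and steer them along gradients of chemokines, mostly by way of Gi proteins. Formyl peptide receptors use the same route to sense N-formyl peptides that bacteria and damaged mitochondria release. Macrophages use both families to reach sites of infection, and CCRL2 differs from the others in that it binds the protein chemerin without the usual signalling.

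The expected counts over all mouse genes summed to 24450338, 34641026 and 60595742 in replicates 1, 2 and 3. All 10 macrophage markers examined were at 1 TPM (a share of all transcripts, scaled for their length) or more in every library, among them Adgre1, Csf1r and Cd68. Replicate 2 stood apart in neutrophil markers. The summed level of the 14 markers was 191, 825 and 116 TPM in replicates 1, 2 and 3. By TPM, 12 of the 14 were highest in replicate 2, some with few counts (totals of 5 for Retnlg and 17 for Elane). In the test given below, 6 of 7 markers differed between libraries and were highest in replicate 2, against 29.7% of all genes tested. The main contributors in replicate 2 were S100a9 at 47.1, 432 and 26.0 TPM and S100a8 at 31.0, 196 and 18.7 TPM. Csf3r went the other way, at 67.75, 48.74 and 46.56 TPM, and was the largest contributor in replicates 1 and 3. The neutrophil surface marker Ly6g had 0 counts. Of the markers of T cells, B cells and natural killer cells, 1 of 6, 1 of 5 and 1 of 6 were at 1 TPM or more in every library. In bulk RNA, more cells of a type and more RNA per cell cannot be told apart.

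The windows of 250 bases before the start site are shown for the members whose upstream sequence held a match to the NF-kB consensus or to TATAAA. NF-kB is a transcription factor that Toll-like receptors activate, and TATAAA is the core of the TATA box. Both strands were searched, and matches are in capitals. RefSeq (GRCm38.p6) gave 10 windows for 8 of the 9 members, and each line reads 5′ to 3′ on the strand of the gene. The windows are chr9:111057519-111057768 (minus) for Ccrl2, chr9:123968693-123968942 (minus) for Ccr1, chr9:124021721-124021970 (plus) for Ccr3, chr1:128592300-128592549 (minus) for Cxcr4, chr17:17883940-17884189 (minus) for Fpr1 and chr17:17887574-17887823 (plus) for Fpr2.
Ccrl2: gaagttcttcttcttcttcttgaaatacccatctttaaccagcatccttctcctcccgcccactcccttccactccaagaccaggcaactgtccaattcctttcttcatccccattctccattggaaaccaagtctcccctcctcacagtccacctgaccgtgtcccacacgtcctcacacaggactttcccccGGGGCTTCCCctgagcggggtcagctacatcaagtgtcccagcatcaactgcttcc
Ccr1: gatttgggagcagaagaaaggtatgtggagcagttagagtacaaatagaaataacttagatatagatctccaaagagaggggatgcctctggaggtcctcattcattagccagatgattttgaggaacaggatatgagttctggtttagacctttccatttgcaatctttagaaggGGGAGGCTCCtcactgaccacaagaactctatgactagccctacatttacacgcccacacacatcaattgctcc
Ccr3: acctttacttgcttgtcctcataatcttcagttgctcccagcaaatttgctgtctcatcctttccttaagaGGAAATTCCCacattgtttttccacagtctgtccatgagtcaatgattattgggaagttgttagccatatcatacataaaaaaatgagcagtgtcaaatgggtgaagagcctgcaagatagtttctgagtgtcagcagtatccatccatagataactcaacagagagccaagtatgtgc
Cxcr4: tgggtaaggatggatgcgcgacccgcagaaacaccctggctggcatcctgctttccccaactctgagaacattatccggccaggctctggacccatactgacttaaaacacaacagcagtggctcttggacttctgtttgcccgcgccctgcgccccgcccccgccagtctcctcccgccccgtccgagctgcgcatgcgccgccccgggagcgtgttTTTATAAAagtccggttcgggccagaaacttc
Fpr1: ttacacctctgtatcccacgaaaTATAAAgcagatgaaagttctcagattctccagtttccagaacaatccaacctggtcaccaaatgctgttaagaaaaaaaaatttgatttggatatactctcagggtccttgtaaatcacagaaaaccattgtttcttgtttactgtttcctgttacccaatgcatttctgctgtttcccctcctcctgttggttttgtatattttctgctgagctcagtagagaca
Fpr2: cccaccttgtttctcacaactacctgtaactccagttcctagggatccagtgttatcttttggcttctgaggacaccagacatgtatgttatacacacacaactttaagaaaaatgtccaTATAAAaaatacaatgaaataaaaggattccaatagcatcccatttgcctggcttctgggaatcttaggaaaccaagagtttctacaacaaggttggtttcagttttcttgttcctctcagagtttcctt
The NF-kB match began 56 bases upstream of the start site in Ccrl2, 74 bases upstream in Ccr1 and 179 bases upstream in Ccr3. The other Ccrl2 windows, of start sites further downstream, held no NF-kB match. Of all 32851 RefSeq windows of this length, 9.55% held such a match. Cxcr4 had TATAAA matches on opposite strands that overlapped, 30 and 32 bases upstream of its start site. In Fpr2 and Fpr1 the TATAAA letters lay 130 and 227 bases upstream, and 12.4% of all windows held them. The letters GAGGAA, the core bound by PU.1 and other ETS factors of macrophages, were in the windows of Ccr1, Ccr3 and Fpr2, and in 23.3% of all windows. The AP-1 letters TGANTCA were in the Ccr3 window and in 6.75% of all windows. These matches describe the letters of the windows and show no binding.

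Ccrl2 led the 9 receptor genes by a wide margin. Its level was 565, 605 and 704 TPM in replicates 1, 2 and 3, with a mean of 624.8 ± 71.4 TPM (SD, n = 3). It ranked 235th among all genes by mean TPM and made up 82.6% of the 756.4 TPM that the 9 genes summed to. The gene lies at chr9:111054486-111057519 on the minus strand (mm10, GENCODE M21), 11719 bases beyond the end of Ltf, the lactoferrin gene. Ccrl2 and the next gene in order, Ccr1, were separated by 3.32 ± 0.72 on a log2 scale of TPM + 0.1, or 10.01-fold, with Ccrl2 higher in 3 of 3 libraries. The exact two-sided sign-flip permutation test gave p = 0.25, which is the smallest that 3 libraries allow, so no comparison of levels below could pass 0.05.

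Ccr1, the receptor of CCL3, CCL5, CCL6 and CCL9, had 43.2, 107.5 and 51.4 TPM in replicates 1, 2 and 3 (mean 67.4 ± 35.0, SD). Replicate 2 was more than both others together. Fpr2, which binds formyl peptides, annexin A1 and serum amyloid A, had 56.8, 26.0 and 25.2 TPM in the same order (mean 35.98 ± 18.1). Here replicate 1 stood above the others, which were nearly level. Ccr1 exceeded Fpr2 in 2 of 3 libraries, and their log2 ratio of 0.89 ± 1.23 was within its spread.

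Ccr3, the eotaxin receptor best known from eosinophils, had 7.36, 15.1 and 8.84 TPM (mean 10.4 ± 4.10). Its level was again highest in replicate 2. Of 10 markers of eosinophils, basophils and mast cells, 0 reached 1 TPM in every library, and their summed level was 1.92, 3.84 and 2.53 TPM, likewise highest in replicate 2. Epx, Ear1, Fcer1a and Ms4a2 had 0 counts, and of the 6 others Siglecf, Prg2, Cpa3 and Mcpt8 were highest in replicate 2 by TPM. Il5ra was highest in replicate 1 and Kit in replicate 3. Counts were few, with totals of 4 for Mcpt8 and 18 for Cpa3. Siglecf did not differ between libraries in the test given below (1.144-fold, edgeR adjusted p = 0.841). The highest single values were 1.63 TPM for Kit in replicate 3 and 1.56 TPM for Prg2 in replicate 2, and the part of these cells in the Ccr3 values was not tested. Fpr1, the classical high-affinity receptor for formyl peptides, had 14.9, 8.01 and 4.71 TPM (mean 9.22 ± 5.22). Fpr2 exceeded Ccr3 in 3 of 3 libraries, by 1.74 ± 1.10 in log2 of TPM + 0.1, but by counts without length scaling the ratio was -0.25. Ccr3 and Fpr1 did not differ beyond their spread, with a log2 ratio of 0.26 ± 1.10 and Ccr3 higher in 2 of 3 libraries. The sign of that ratio turned without replicate 2 (-0.059) or replicate 3 (-0.053).

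Cxcr4, the receptor for CXCL12 that holds leukocytes in the marrow, had 4.03, 3.04 and 7.06 TPM (mean 4.71 ± 2.09). Replicate 3 was the highest. Ccr2, the CCL2 receptor that lets monocytes leave the marrow, had 1.59, 3.11 and 1.09 TPM (mean 1.93 ± 1.05). Ccr7, which guides dendritic cells to lymph nodes, had 1.38, 2.59 and 1.60 TPM (mean 1.86 ± 0.645). Both were highest in replicate 2. Neither Fpr1 over Cxcr4 (0.89 ± 1.29 in log2) nor Cxcr4 over Ccr2 (1.28 ± 1.31) exceeded its spread, and each held in 2 of 3 libraries. Ccr2 and Ccr7 could not be placed in order, with a log2 ratio of -0.023 ± 0.43 that became 0.22 without replicate 3.

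Cx3cr1, the fractalkine receptor of resident monocytes and tissue macrophages, was barely seen, at 0.02, 0.15 and 0.04 TPM. Its counts were 1, 10 and 5, a total of 16 (exact Poisson 95% interval 9.15 to 26.0, counting error only). Ccr7 stood 3.55 ± 0.11 above it in log2 of TPM + 0.1, in 3 of 3 libraries, and 1.40 above it with a pseudocount of 1 TPM. The size of this ratio and its SD thus rest on the pseudocount. The annotated span of Cx3cr1 contains or overlaps other genes with far more reads, among them Csrnp1 on the same strand at 128, 156 and 148 TPM, with strandedness not given in the sources used here. With replicate 2, the quantifications assigned its few reads to different Cx3cr1 transcripts. After adjustment over the 8 neighbouring pairs, the exact sign-flip permutation p was 0.667 or 1.0.

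**Figure D1:**
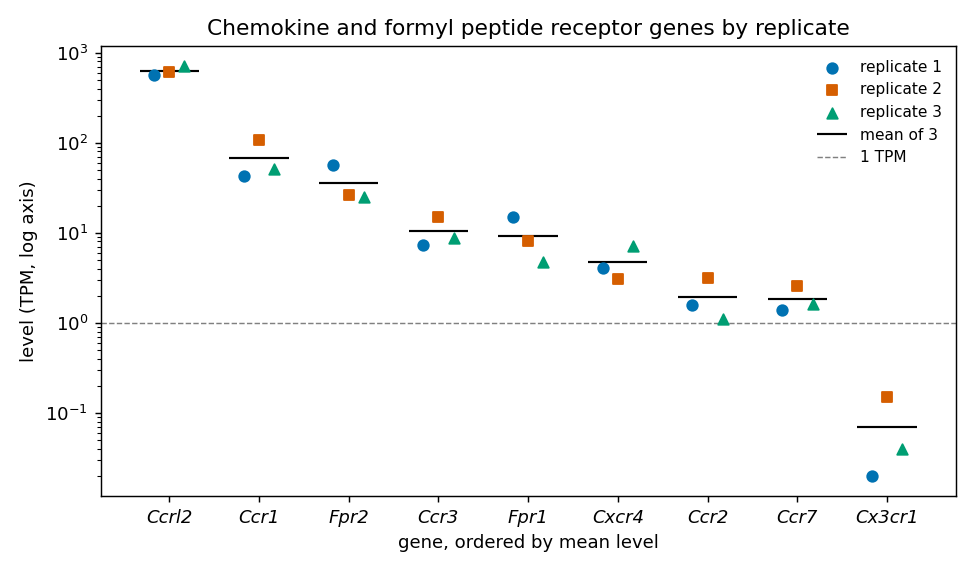
Level in TPM (log axis) of the 9 receptor genes, ordered by mean, in replicates 1 to 3 (points) with the mean of 3 (bar) and 1 TPM (dashed line). Ccrl2 sits between 565 and 704 TPM, above every other gene, and Cx3cr1 is the only gene whose 3 points all lie under 1 TPM.

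Counted at 1 TPM or more in every library, 8 of the 9 receptor genes were detected, against 42.6% of 22028 protein-coding genes. The members were chosen with earlier results of these data known, so this contrast depends on that choice. Of 31 receptor genes examined, members included, 10 were detected. The median level over all detected genes was 14.6 ± 0.535 TPM (SD, n = 3), so Ccrl2, Ccr1 and Fpr2 had means above it and the other members had means under it. A second, separate quantification of the same libraries gave lower means for the 8 detected members, at 0.818 to 0.995 of the first. The lower level was not limited to the members, with 0.790 for Cd68 and 0.820 for Gnai2, but 1.01 for Msr1. In replicate 2, the second values for Ccr2 (3.52 TPM) and Cxcr4 (3.10 TPM) were higher than the first. In the second quantification, Ccr7 was at 0.949 TPM in replicate 1 and Ccr2 at 0.995 TPM in replicate 3. There, 6 members were at 1 TPM or more in every library.

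The members did not move together between libraries. Ccr1, Ccr2, Ccr3 and Ccr7 were each highest in replicate 2, Fpr1 and Fpr2 in replicate 1, and Ccrl2 and Cxcr4 in replicate 3. edgeR's likelihood ratio test with a Poisson model asked whether the 3 libraries had equal rates, which compares these libraries and not conditions. At a Benjamini-Hochberg adjusted p under 0.05, all 8 members tested differed between libraries, against 77.6% of the 11611 genes tested, so the call alone sets the members little apart. With a ratio of at least 2 between the highest and the lowest library as well, 5 of 8 members passed, against 12.4% of all genes. Those 5 were Ccr1, Fpr2, Fpr1, Cxcr4 and Ccr2.

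The widest ratio was that of Fpr1, whose normalised rate was 10.6, 5.29 and 3.34 CPM (counts scaled to the total of a library) in replicates 1, 2 and 3. Its highest library was 3.18 times its lowest (edgeR adjusted p = 4.07e-32). Ccr2 followed at 3.44, 7.32 and 2.51 CPM, a ratio of 2.91 (edgeR adjusted p = 7.55e-26). Cxcr4 spanned 2.45-fold (edgeR adjusted p = 6.44e-17), Ccr1 2.36-fold and Fpr2 2.30-fold (edgeR adjusted p = 8.20e-60). Ccr3 spanned 1.94-fold (edgeR adjusted p = 1.63e-36) and Ccr7 1.77-fold (edgeR adjusted p = 2.33e-03), short of the ratio of 2. Ccrl2 was the steadiest, at 514, 514 and 618 CPM, a ratio of 1.203 (edgeR adjusted p = 1.67e-123).

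By the direction of these calls, 4 members were highest in replicate 2, where 29.7% of all tested genes were called and highest. Another 2 were highest in replicate 1 (24.2% of all genes) and 2 in replicate 3 (23.6%). The median ratio of highest to lowest library was 2.33 over the 8 members and 1.38 over all genes tested. The gene-wise biological coefficient of variation (edgeR) had a median of 0.299 over the members and 0.213 over all genes. Of the 8 members, 7 were above that median of all genes. These comparisons with all genes, and the count past a ratio of 2, were not matched for level. All members but Ccrl2, Ccr1 and Fpr2 had means under the median of detected genes, 14.6 TPM. Ccr2 was at 0.354, a value in the 96.1 percentile of tested genes, Fpr1 at 0.352 (95.9), and Ccrl2 at 0.183 (20.6).

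Single libraries carried some of these calls. Without replicate 1, Fpr2 no longer passed the test (1.01-fold, edgeR adjusted p = 0.902), and without replicate 2 neither did Ccr7 (1.17-fold, edgeR adjusted p = 0.512). Without replicate 3, Ccrl2 did not pass (1.00-fold, edgeR adjusted p = 0.910). The count past a ratio of 2 fell to 2 of 8 without replicate 1 (Cxcr4 and Ccr2), to 2 without replicate 2 (Fpr1 and Fpr2) and to 4 without replicate 3 (Ccr1, Fpr1, Fpr2 and Ccr2). Of the 14 neutrophil markers, 12 were also highest in replicate 2, as were Ccr1, Ccr2, Ccr3 and Ccr7. So were 5 of 7 monocyte markers (summed level 108, 138 and 80.9 TPM). All 9 dendritic cell markers were too (22.2, 28.6 and 20.3 TPM). The same held for 5 of 6 T cell, 3 of 5 B cell and 5 of 6 natural killer cell markers. It held for 3 of 10 macrophage markers. The summed T cell level was lowest in replicate 2, at 34.9, 25.2 and 46.5 TPM. Most of that was Lck, the only T cell marker tested, which was called and highest in replicate 3. The other T cell markers had totals of 1 to 7 counts. The B cell and natural killer cell sums were highest in replicate 2, and the macrophage sum was lowest there. The counts of markers above rank the libraries by TPM, and the calls rank them by normalised CPM. They differ for the monocyte marker Vcan, highest in replicate 1 by TPM and in replicate 2 by CPM. Of the markers tested, 6 of 7 neutrophil, 5 of 6 monocyte and 4 of 4 dendritic cell genes were called and highest in replicate 2. The share over all genes tested was 29.7%. Only 1 of those dendritic cell genes reached 1 TPM in every library. The part of these cell types in the receptor values was not tested.

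**Figure D2:**
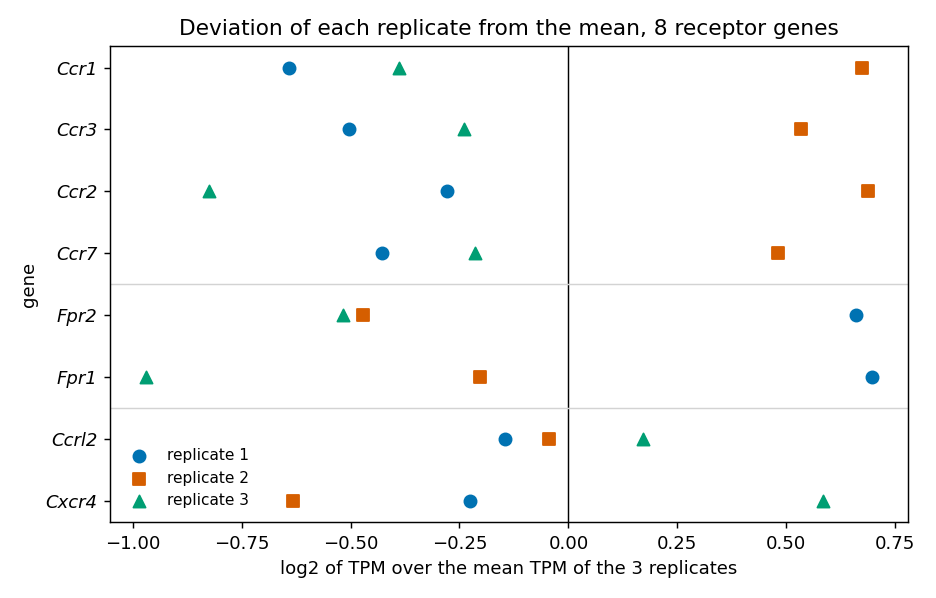
Log2 of each replicate's TPM over the mean of the 3 replicates, for the 8 receptor genes at 1 TPM or more, grouped by the library in which they were highest. Ccr1, Ccr3, Ccr2 and Ccr7 have replicate 2 on the right, Fpr2 and Fpr1 replicate 1, and Ccrl2 and Cxcr4 replicate 3, with the narrowest spread for Ccrl2.

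The genes whose pattern over the 3 libraries came nearest to those of the members with the widest range are given as a description. Likeness was the Euclidean distance between deviations of log2(TPM + 0.1) from the mean, over 3 libraries of 1 group and among 6036 genes with a mean of at least 10 TPM. For Fpr1, whose range was 1.64 in log2, the nearest was Saa3, a serum amyloid A gene, at 720, 401 and 244 TPM and a distance of 0.060. Next came Gm10288, a processed pseudogene, at 52.2, 27.6 and 17.4 TPM (0.065), and Leng8 at 28.9, 13.5 and 8.86 TPM (0.147). For Ccr2, with a range of 1.43, they were Eif3j2 at 9.01, 17.2 and 6.74 TPM (0.075), Gga3 at 14.9, 30.8 and 11.3 TPM (0.091) and Spryd7 at 49.97, 93.2 and 38.2 TPM (0.112).

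Ccr1, Ccr3 and Ccr2 lie in the chemokine receptor cluster of chromosome 9, where levels differed widely between neighbours. Ccr1 spans chr9:123962124-123968692 (minus), Ccr3 chr9:124021972-124031689 (plus) and Ccr2 chr9:124101950-124113557 (plus). Between Ccr1 and Ccr3 lies Ccr1l1, a close relative of Ccr1, at 0.21, 0.29 and 0.23 TPM. On the far side of the cluster Xcr1, Cxcr6 and Ccr9 had means of 0.300, 0.307 and 0.330 TPM, whereas Lztfl1, which is no receptor gene, had 20.99 TPM. Ccr1 exceeded Ccr2 by 5.06 ± 0.38 in log2, or 33.4-fold, in 3 of 3 libraries. The gene counts of Ccr2 were not whole numbers, so they depend in part on how reads shared with other genes were split. The deposited posterior SD of the Ccr2 count was at most 0.68.

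**Figure D3:**
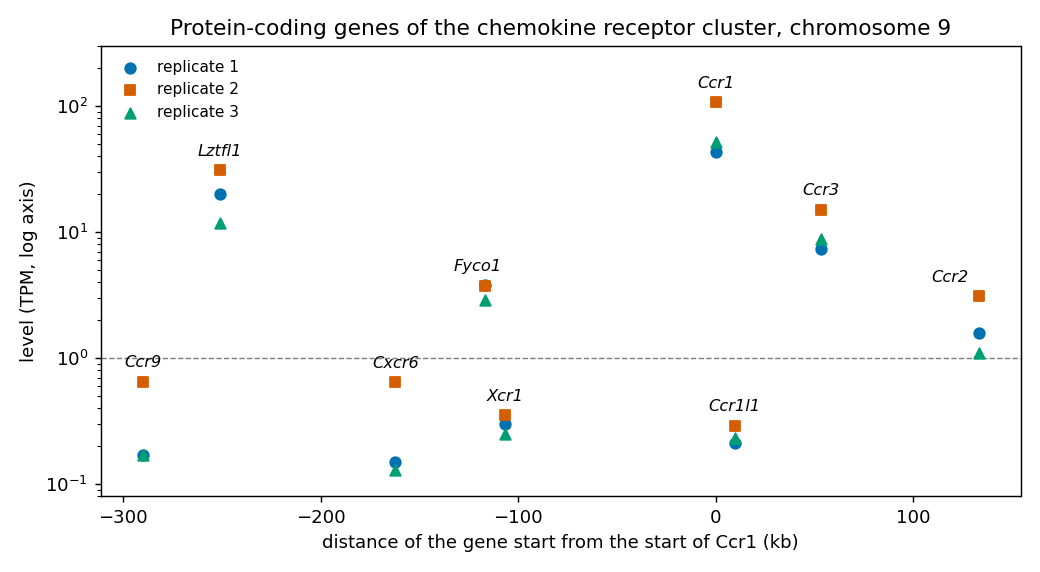
Level in TPM (log axis) of the 9 protein-coding genes from Ccr9 to Ccr2 in the chromosome 9 cluster in replicates 1 to 3, against the distance of each gene's start site from that of Ccr1 in kb. Ccr1 is the highest, Ccr3 lies between 7.36 and 15.1 TPM, and Ccr9, Cxcr6, Xcr1 and Ccr1l1 stay under 1 TPM.

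Fpr1 (chr17:17876471-17883940, minus) and Fpr2 (chr17:17887824-17893952, plus) are neighbours on chromosome 17 that point away from each other, with 3884 bases between their start sites. Fpr2 exceeded Fpr1 by 2.00 ± 0.36 in log2, or 3.997-fold, in 3 of 3 libraries. Both were highest in replicate 1. Fpr1 was lowest in replicate 3, whereas Fpr2 was nearly level in replicates 2 and 3. The other 5 mouse formyl peptide receptor genes examined, Fpr3 and 4 Fpr-rs genes, had 0 counts in all libraries. Fpr3 overlaps Fpr2 on the same strand. The Fpr2 gene counts in replicates 2 and 3, 455.89 and 727.95, were not whole numbers. Their deposited posterior SD was at most 0.4.

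The other members lie apart from these clusters, Cxcr4 at chr1:128588199-128592293 (minus), Ccr7 at chr11:99144196-99155077 (minus) and Cx3cr1 at chr9:119901616-120069879 (minus). The receptors examined for a shared ligand with Ccrl2 or Cxcr4 were lower than these members. Cmklr1, the signalling receptor for chemerin, had 15.4, 15.2 and 12.4 TPM, and Ccrl2 exceeded it by 5.44 ± 0.33 in log2, or 43.4-fold. Ackr3, the scavenging receptor for CXCL12, had 2 counts in all against 581 for Cxcr4. The ratio of those counts, without length scaling, was 290.5 (95% interval 80.1 to 2404, counting error only). Over the 5 chosen pairs of related receptors, the order was the same in 3 of 3 libraries, with p = 0.25 by the exact sign-flip permutation test before and after adjustment. Of the 31 chemokine, atypical and formyl peptide receptor genes examined, 10 were detected, against 42.6% of protein-coding genes. The 2 detected ones besides the members were Cmklr1 and Cxcr3 (2.82 ± 0.639 TPM), and Ccrl2 held 80.6% of the summed TPM of these 31.

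The ligand genes differed by receptor. Of 17 ligand genes of the members, 11 were at 1 TPM or more in every library, against 42.6% of protein-coding genes. For Ccr1 all 4 ligands examined were high, with Ccl5 at 7653, 6253 and 5541 TPM, Ccl3 at 2555, 4294 and 1537, Ccl9 at 1680, 2645 and 1549, and Ccl6 at 376, 690 and 356. The Ccr2 ligand Ccl2 had 764, 2817 and 707 TPM, and Ccl7 and Ccl12 had means of 1387 ± 1074 and 541 ± 369 TPM. For Fpr2 and Fpr1, the annexin gene Anxa1 had 663, 1037 and 650 TPM, while Camp, the gene of the FPR2 ligand cathelicidin and also a neutrophil marker, had 0.12, 5.58 and 0.16.

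The ligands examined for Ccrl2, Cxcr4 and Ccr7 were at or near 0. For Ccr3, which also binds CCL5 and CCL7, the eotaxin gene Ccl24 had 21.96, 17.8 and 15.7 TPM, but Ccl11, another eotaxin gene, was under 0.1 TPM in each library. Rarres2, which encodes chemerin, had 0, 0.1 and 0 TPM, so the highest receptor gene stood beside an almost silent ligand gene. Cxcl12 was at 0.08, 0.23 and 0.06 TPM, and the Ccr7 ligands Ccl19 and Ccl21a had 0 counts. Cx3cl1 was at 2.63, 1.63 and 2.92 TPM, above its receptor Cx3cr1 in every library. All 11 ligand genes tested differed between libraries, and 5 (Ccl2, Ccl3, Ccl7, Ccl12 and Saa3) did so by a ratio of at least 2, against 77.6% and 12.4% of all genes tested. Of the 11, 7 were highest in replicate 2, 3 in replicate 1 and 1 in replicate 3, against 29.7%, 24.2% and 23.6% of all genes.

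**Figure D4:**
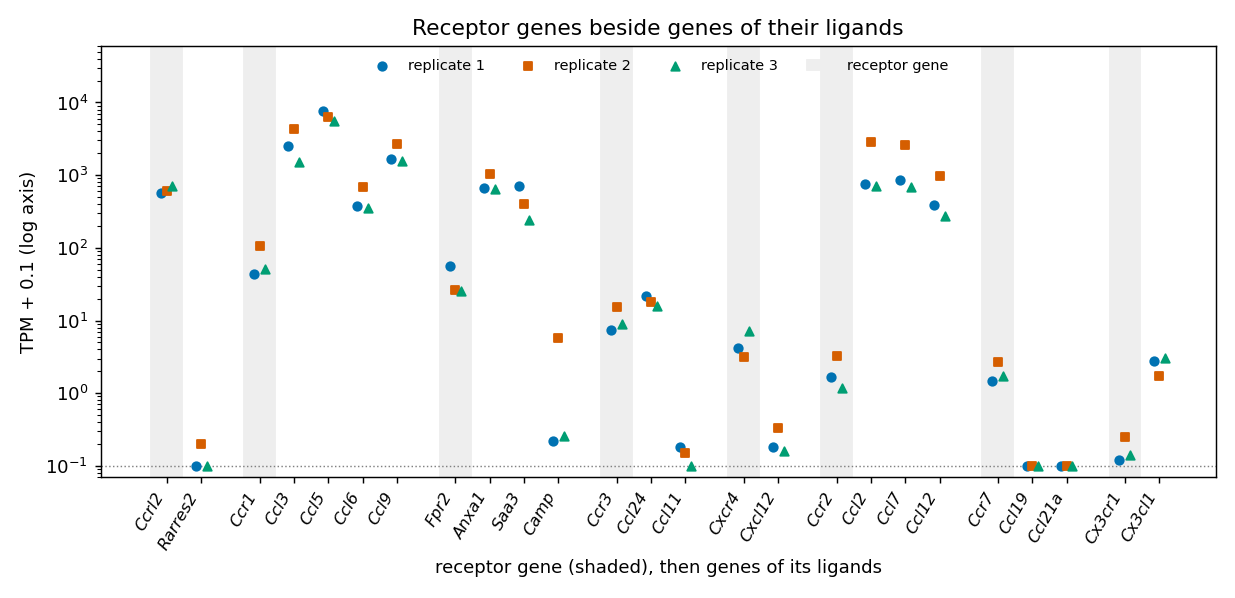
TPM + 0.1 (log axis) of receptor genes (shaded) and of the genes of their ligands in replicates 1 to 3, with the dotted line at 0 TPM. Ligand genes of Ccr1 and Ccr2 lie far above their receptors, whereas Rarres2, Cxcl12, Ccl19 and Ccl21a lie at or near 0 TPM.

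Genes that act after the receptors were nearly all detected, against 42.6% of protein-coding genes. Their lists were chosen with earlier results of these data known, so this contrast depends on that choice. All 13 Gi signalling genes were detected (median 122 TPM), from Gnai2, the main Gi alpha gene of leukocytes, at 398 ± 44.9 TPM, to Pik3cg, the catalytic subunit of PI3K gamma, at 4.10 ± 0.342. Of these 13, 12 differed between libraries and 1, Plcb2, did so by a ratio of at least 2, shares near the 77.6% and 12.4% of all genes tested. Of 13 genes that switch receptors off, 12 were detected (median 16.9 TPM), and 12 differed between libraries. Rgs1, which speeds the turn-off of Gi proteins, was the highest at 790, 1005 and 711 TPM, and Rgs16 at 0.99, 1.51 and 0.52 TPM was the lowest and the only 1 past a ratio of 2. All 13 migration genes were detected (median 86.6 TPM), from the actin-severing gene Cfl1 at 1125 ± 63.9 TPM to Elmo1, a partner of Dock2, at 19.3 ± 2.83. All 13 differed between libraries, and 0 of them by a ratio of at least 2. Over all genes tested, 77.6% differed and 12.4% did so by that ratio, so the counts for these lists set them little apart.

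The 9 receptor genes have 18 annotated transcripts, and 4 of the genes have 1 each. Ccrl2-203 was the main Ccrl2 transcript at 68.1% ± 2.72 of the TPM of the gene (SD, n = 3), with 65.3% ± 3.76 in the second quantification. Ccrl2-202 had 23.8% ± 2.30 and Ccrl2-201 8.17% ± 0.423. The printed Ccrl2 window ends within 1 base of the start of Ccrl2-203, and the other transcripts start further downstream. Fpr2 was split nearly evenly, with 56.9% ± 6.32 for Fpr2-201 and 43.1% ± 6.32 for Fpr2-202.

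Shares for the low members depended on few reads. Cxcr4-201 held 89.6% ± 9.03, and Cxcr4-202 had 0, 14.5 and 16.6% in replicates 1, 2 and 3. Ccr2-202, a transcript of 1 exon, held 62.1% ± 7.67 in the first quantification and 47.2% ± 5.70 in the second. Ccr2-201 held 0% in replicate 2 by the first and 14.0% by the second, so the shares of Ccr2 transcripts were not settled by these values.

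**Figure D5:**
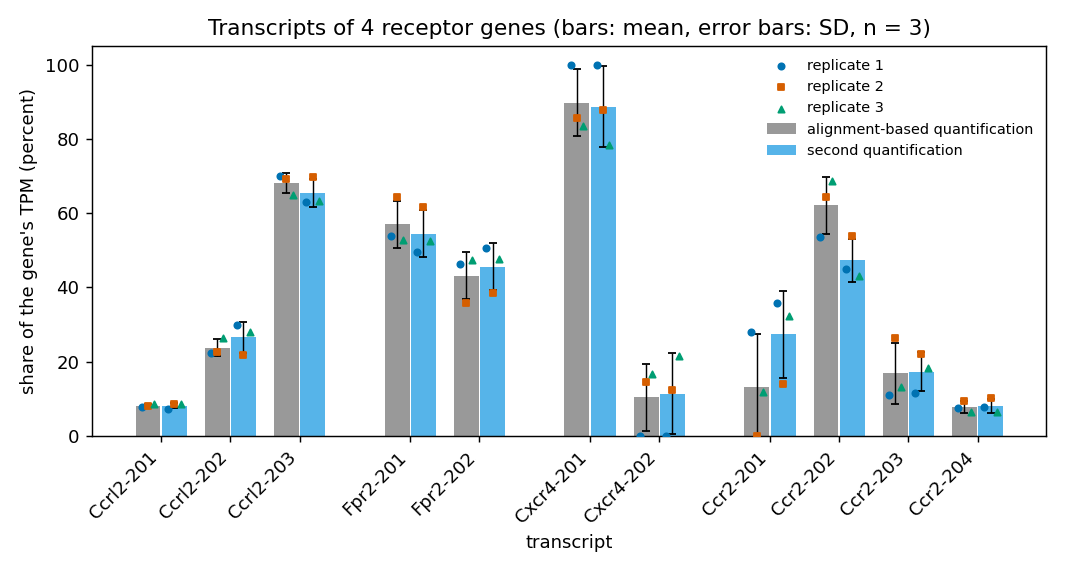
Share of each gene's TPM by transcript in percent for Ccrl2, Fpr2, Cxcr4 and Ccr2, as mean (bar), SD (error bar, n = 3) and replicates (points). Grey marks the first quantification, which the legend calls alignment-based although its tool is not given, and blue marks the second. Ccrl2-203 is the main transcript of its gene in both, and Ccr2-201 and Ccr2-202 differ most between them.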

How the data were processed

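Per the file headers, the authors deposited for each library expected counts, TPM and FPKM for genes, the same for transcripts with the percent of each gene they make up, and a second transcript quantification with estimated counts and TPM. The deposited README texts name mm10 and GENCODE M21. Tools, their versions and strandedness: not given in the sources used here. The labels give 1 µg of RNA and a size range of 250 to 400 without a unit.

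TPM was used as deposited, as were the transcript shares of the first quantification. The shares of the second were computed from its TPM. Log2 ratios used TPM + 0.1. Expected counts were rounded to whole numbers for edgeR 4.0.16 (R 4.3.3), with TMM scaling, its default filter and Benjamini-Hochberg adjustment over all genes tested, after a test on simulated data. The Poisson model counts spread beyond counting error as a difference. A count of 3 equals 0.123, 0.0866 and 0.0495 CPM (counts scaled to the library total) in replicates 1, 2 and 3, and intervals cover counting error only.

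The members, lists and pairs were chosen with earlier results of these data known. A related receptor gene is not reported here. Genes named are the members, the highest, lowest, neighbouring or ligand genes of each list, and the 3 genes nearest in pattern to the 2 members with the widest range. Called genes and markers singled out were chosen after their values were seen.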

Additional observations from a re-analysis of the deposited data

How the results depend on the processing

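The 13 pairs gave 91 log2 ratios under other settings, and 84 kept their direction. The settings were a pseudocount of 1 TPM, FPKM, the second quantification, counts without length scaling, and each replicate left out. Ccrl2 and Ccr1 are both a neighbouring and a chosen pair, so their ratios, all unchanged in direction, are counted in both with opposite sign. Ccr2 over Ccr7 turned positive with a pseudocount of 1 TPM (0.00071), the second quantification (0.20), counts (0.96) and without replicate 3, with a range of -0.16 to 0.22 over left-out replicates. Fpr2 over Ccr3 was -0.25 by counts, which are not scaled by length. Ccr3 over Fpr1 ranged from -0.059 to 0.90 over left-out replicates. By counts, Ccrl2 over Ccr1 was 2.38, Ccr1 over Fpr2 2.66, Ccr3 over Fpr1 1.76, Fpr1 over Cxcr4 0.44 and Cxcr4 over Ccr2 0.066. With a pseudocount of 1 TPM, Ccr7 over Cx3cr1 was 1.40 and Cxcr4 over Ackr3 2.44. Without replicate 1, Ccr1 over Fpr2 was 1.54, Fpr2 over Ccr3 1.14 and Fpr1 over Cxcr4 0.40. Without replicate 2, Ccr1 over Fpr2 was 0.32 and Cxcr4 over Ccr2 1.94, and without replicate 3 Cxcr4 over Ccr2 was 0.63 and Fpr1 over Cxcr4 1.62. The causes were not tested.

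With no filter on low counts, 2711 genes passed both limits on spread, against 1439. Leaving out a replicate gave 589 to 881 genes and 2 to 4 members. With the second quantification Ccr3 passed as well, at 2.06-fold, and with DESeq2 1.42.0 size factors 8 and 5 members were called as before. Detection held for 8 members at 0.5 TPM and for 6 at 1 FPKM or in the second quantification. No paired analysis was possible because the libraries form 1 group. Depth limits Cx3cr1, with 16 counts, and the 3 libraries limit every test of levels.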
